A study of Danio rerio with 94 samples.

Results

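The genes of the extracellular matrix and of the integrins that bind it were followed in zebrafish embryos exposed to naphthalene or an alkyl naphthalene. They were chosen by symbol, as every gene of the deposited table whose name starts like a collagen, a laminin, fibronectin 1, an integrin subunit, a matrix metalloproteinase (mmp), a tissue inhibitor of metalloproteinases (timp), an adamts protease, a fibrillin, a thrombospondin or sparc. The rule found 49 of the 3068 measured genes: 26 collagens, 7 integrin genes, 5 laminins, 3 matrix glycoproteins (fn1a, thbs1b and sparc) and 8 proteases and inhibitors. It found 0 fibrillins. One of the integrin genes, itgb1bp1, encodes a protein that binds an integrin tail and not an integrin subunit.

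Embryos of the tropical 5D zebrafish line were kept in sealed glass vials from 6 to 24 hpf with 20 µM of 1 of 22 chemicals, naphthalene and 21 alkyl naphthalenes, or with the DMSO vehicle that every vial received, and were then moved to clean medium. RNA was taken from whole embryos at 48 hpf as pools of 6 embryos that looked normal, 4 pools per chemical and 5 vehicle control pools (2 of exposure day 1 and 3 of day 2), with 11 chemicals on each day. The assay was TempO-Seq, which reads a panel of genes through pairs of detector oligos that are ligated on the RNA and sequenced. Values are log2 CPM (counts per M) as deposited, on which a gene with 0 reads stands at -2.39. Reads given here are the counts behind these values, after the authors' correction for exposure day. A log2FC (log2 fold change) is the mean of a chemical's 4 pools minus the mean of the 5 control pools on that scale.

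Collagens are trimers. The fibrillar ones form the fibrils of skin, fin, tendon and cartilage, and the collagens of type IV form, with the laminins, the sheet of the basement membrane under epithelia, muscle and vessels. Integrins are paired receptors that tie cells to fibronectin, laminin and collagen, while mmp and adamts proteases cut the matrix and timp proteins restrain the mmps. In a zebrafish embryo of this age the notochord sheath, the fin folds, the skin and the first cartilages are rich in these proteins.

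Depth was 7.21 to 16.5 M reads per pool (median 10.3 M), and 8.14 to 12.7 M in the control pools. Of the 49 genes, 30 had reads in each of the 93 pools and 9 had a mean under 10 reads, which limits what can be seen of them. Pools of a group differed by a median SD of 0.43 on the log2 scale for these genes and of 0.50 for all genes. The SD was 0.30 for the median collagen, 0.31 for the median laminin, 0.89 for the median integrin gene and 1.36 for the median protease or inhibitor. In the control pools the summed marker genes of epidermis (59740 to 73000 CPM), skeletal muscle (21250 to 29830 CPM), notochord (843 to 970 CPM) and cartilage (116 to 235 CPM) were all read, as the label whole animal has it. Per the paper, embryos were pooled in vial groups, but its counts of vials and samples do not settle whether each pool had its own vial. Each limma p value rests on the spread between such pools, estimated for a gene from all 23 groups together. The SE and p value of a chemical thus do not follow the spread of its own pools. In RNA of whole embryos, fewer cells of a type and less RNA per cell cannot be told apart.

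The first question was which of these genes differed from the vehicle in any chemical. By the rule of the study for a differentially expressed gene (DEG), an adjusted p of at most 0.05 with a log2FC of at least 1 in size, 0 of the 1078 comparisons of a member with the controls were called by limma (p adjusted by Benjamini-Hochberg, each chemical over its 3068 genes). Over all genes 0.324% of comparisons were called. At an unadjusted p under 0.05, limma gave 92 lower (8.53%) and 20 higher (1.86%) values among the 1078, against 6.56% lower and 4.82% higher over all genes. Weighting the reads with voom gave 95 lower and 22 higher, with 1 DEG call, itgb8 in 1,4,5-trimethyl-substituted naphthalene. For 53.2% of the member comparisons the whole 95% interval of the log2FC lay between -1 and 1, as for 51.4% of all comparisons. That share was 70.1% for collagens, 63.6% for matrix glycoproteins, 60% for laminins, 27.9% for integrin genes and 12.5% for proteases and inhibitors. For most collagen comparisons and for few protease comparisons the interval thus held no value of the DEG size. Genes almost without reads also have narrow intervals and count in these shares, col10a1a, col10a1b and lama3 in 22 chemicals each and itgb5 in 20. Of the 43 integrin intervals inside, itgb1bp1 gave another 22.

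Without the fold criterion, small decreases of collagens appeared. At an adjusted p of at most 0.05, 14 member comparisons were lower than control, 1.3% of the 1078, against 0.719% of all comparisons. These 14 were all collagens, 2.45% of the 572 collagen comparisons, and came from 7 genes: col11a1b in 5 chemicals, col16a1 in 4, and col1a1a, col1a2, col4a2, col6a2 and col9a3 in 1 chemical each. Their log2FC ranged from -0.30 to -0.92. On the higher side 1 member comparison passed, 0.0928% of 1078, against 0.483% of all comparisons, and it rested on 5 reads of a single pool (lama3, described with the laminins). All 22 comparisons use the same 5 control pools, so they are not independent of each other. Without control pool A of day 1 the 14 lower calls became 5, without pool C of day 1 they became 8, without pool A of day 2 they became 9 and without pool B of day 2 they became 19.

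**Figure D1:**
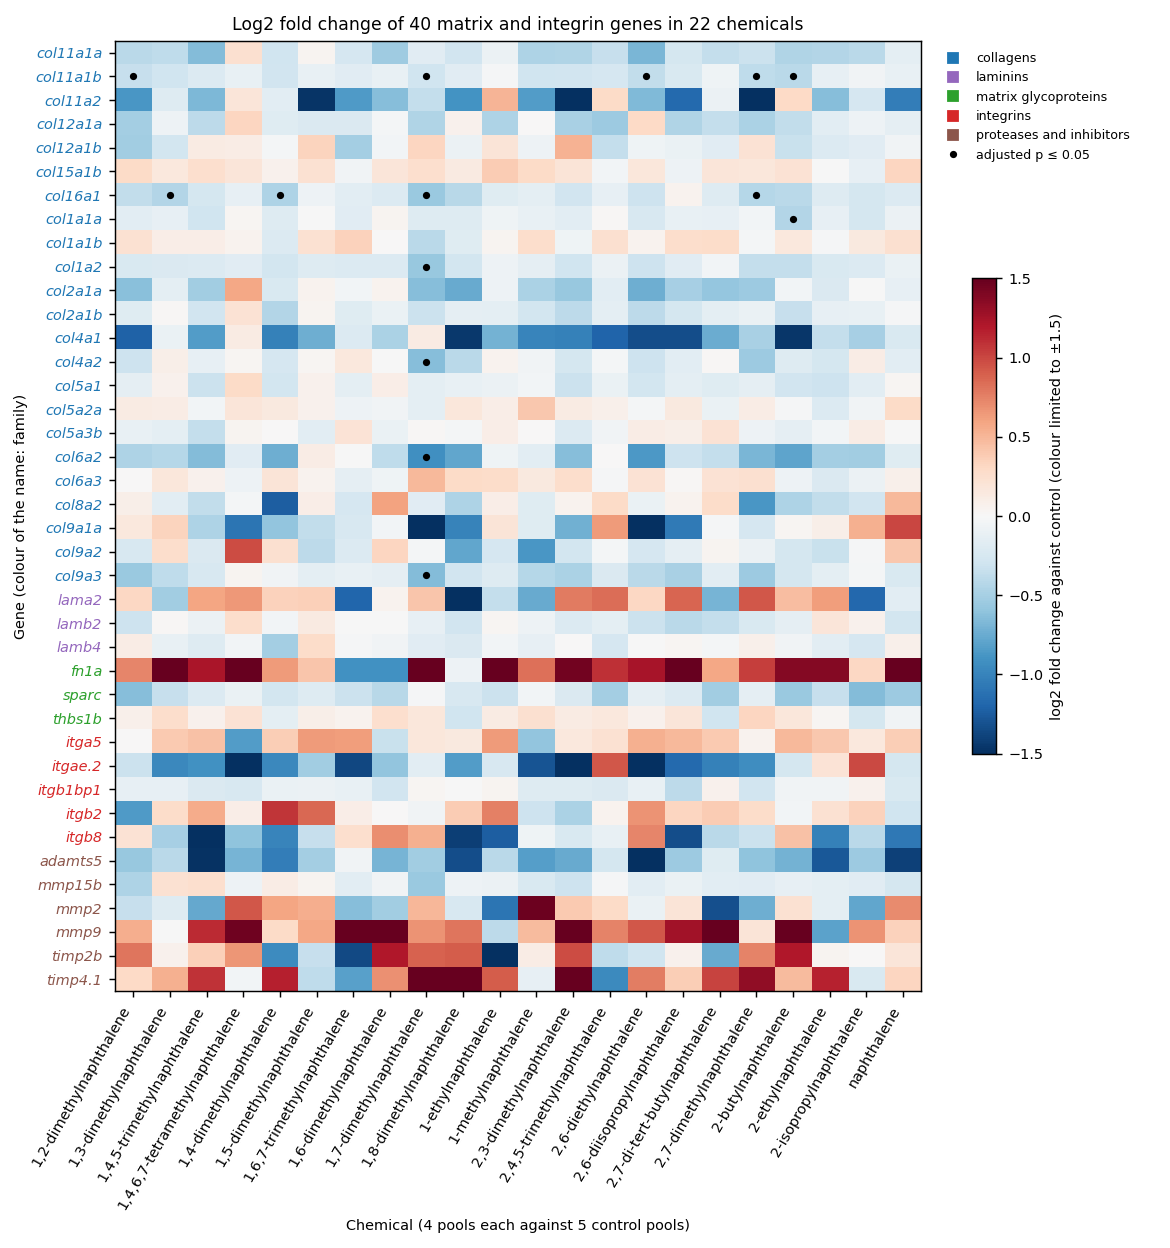
Log2FC against the 5 control pools (colour, cut at 1.5 in size) of the 40 genes with a mean of at least 10 reads (lines of the map) in the 22 chemicals (columns), with a dot where the adjusted p was at most 0.05. The dots stand only in collagens, 14 in number, and 6 of them stand in the column of 1,7-dimethylnaphthalene.

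The same tendency was seen over the collagens as a family, as a description. The median log2FC of the 26 collagens was below 0 in 20 of the 22 chemicals, from -0.28 in 2,3-dimethylnaphthalene to 0.05 in 1,4,6,7-tetramethyl-substituted naphthalene, while the median of all genes stayed between -0.04 and 0. Averaged over the 22 chemicals, 20 of 26 collagens had a mean below control, with a median difference of -0.14. The median was -0.11 over the 49 members and -0.02 over all 3068 genes, of which 1631 had a mean below control. At an unadjusted p under 0.05, collagens were lower in 71 (12.4%) and higher in 8 (1.40%) of 572 comparisons, against 6.56% and 4.82% over all genes.

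Further limma tests asked which genes differed without choosing a chemical. The F test over the 23 groups called 6 of 49 members (12.2%), against 7.95% of all genes, and these were col11a1b, col16a1, col1a1b, col4a2, col1a1a and the laminin lamb2. The contrast of the mean of the 22 chemicals with the controls called 1 member, col11a1b (2.04% of 49), against 2.97% of all genes. That call was lost without any 1 of 4 control pools (A or C of day 1, A or C of day 2).

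col11a1b, a chain of type XI collagen, which regulates fibril width in cartilage and other tissues, was the collagen lower in the most chemicals. In the control pools it stood at 9.62 and 9.59 log2 CPM on day 1 and at 9.53, 9.37 and 9.57 on day 2. In 2-butylnaphthalene its 4 pools stood at 9.04, 9.14, 9.30 and 9.04, below every control pool, and the log2FC was -0.40 (SE 0.09, limma adjusted p = 0.0055, against 0.88% of all genes lower in this chemical). In 2,7-dimethylnaphthalene they stood at 9.18, 9.11, 9.25 and 9.08, again below every control pool (log2FC -0.38, SE 0.09, limma adjusted p = 0.0064, against 1.56% of all genes). In 2,6-diethylnaphthalene they stood within a narrow range, at 9.17, 9.20, 9.16 and 9.15 (log2FC -0.36, SE 0.09, limma adjusted p = 0.022, against 0.782% of all genes). In 1,2-dimethylnaphthalene the pools read 9.22, 9.20, 9.24 and 9.11 (log2FC -0.34, SE 0.09, limma adjusted p = 0.021, against 1.21% of all genes). Both of these groups also lay below every control pool. The mean of col11a1b was below that of the controls in each of the 22 chemicals, with an unadjusted p under 0.05 in 12. The mean over all chemicals was lower by 0.21 on the log2 scale (difference -0.21, SE 0.06, limma adjusted p = 0.032), and the F test gave an adjusted p of 0.0015.

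col16a1 encodes a chain of type XVI collagen, a member of the group that sits on the surface of fibrils. Its control pools stood at 8.77 and 8.85 on day 1 and at 8.71, 8.37 and 8.51 on day 2, so the day 1 pools were the higher ones. In 1,4-dimethylnaphthalene the 4 pools stood at 8.20, 8.10, 8.09 and 8.34, below every control pool (log2FC -0.46, SE 0.12, limma adjusted p = 0.032, against 0.945% of all genes lower in this chemical). In 1,3-dimethylnaphthalene they stood at 7.90, 8.30, 8.21 and 8.41, with 3 of 4 below every control pool (log2FC -0.44, SE 0.12, limma adjusted p = 0.040, against 0.945% of all genes). In 2,7-dimethylnaphthalene they stood at 8.01, 8.45, 8.39 and 8.00, and 2 of the 4 lay within the control range (log2FC -0.43, SE 0.12, limma adjusted p = 0.039). The group mean was below control in 21 of 22 chemicals, with an unadjusted p under 0.05 in 11, and the F test gave a limma adjusted p of 0.0072. The mean over all chemicals did not pass the test (difference -0.26, limma adjusted p = 0.074).

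col1a1a, one of the zebrafish genes for the alpha 1 chain of type I collagen, the main fibril of skin and bone, was lower in 2-butylnaphthalene only by this criterion. Its control pools read 8.85 and 8.87 on day 1 and 8.78, 8.61 and 8.63 on day 2. The 4 pools of 2-butylnaphthalene read 8.31, 8.25, 8.60 and 8.06, all below the lowest control pool (log2FC -0.44, SE 0.10, limma adjusted p = 0.0075). That chemical thus held 2 of the 14 lower calls, col11a1b and col1a1a, and 2,7-dimethylnaphthalene held another 2, col11a1b and col16a1.

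**Figure D2:**
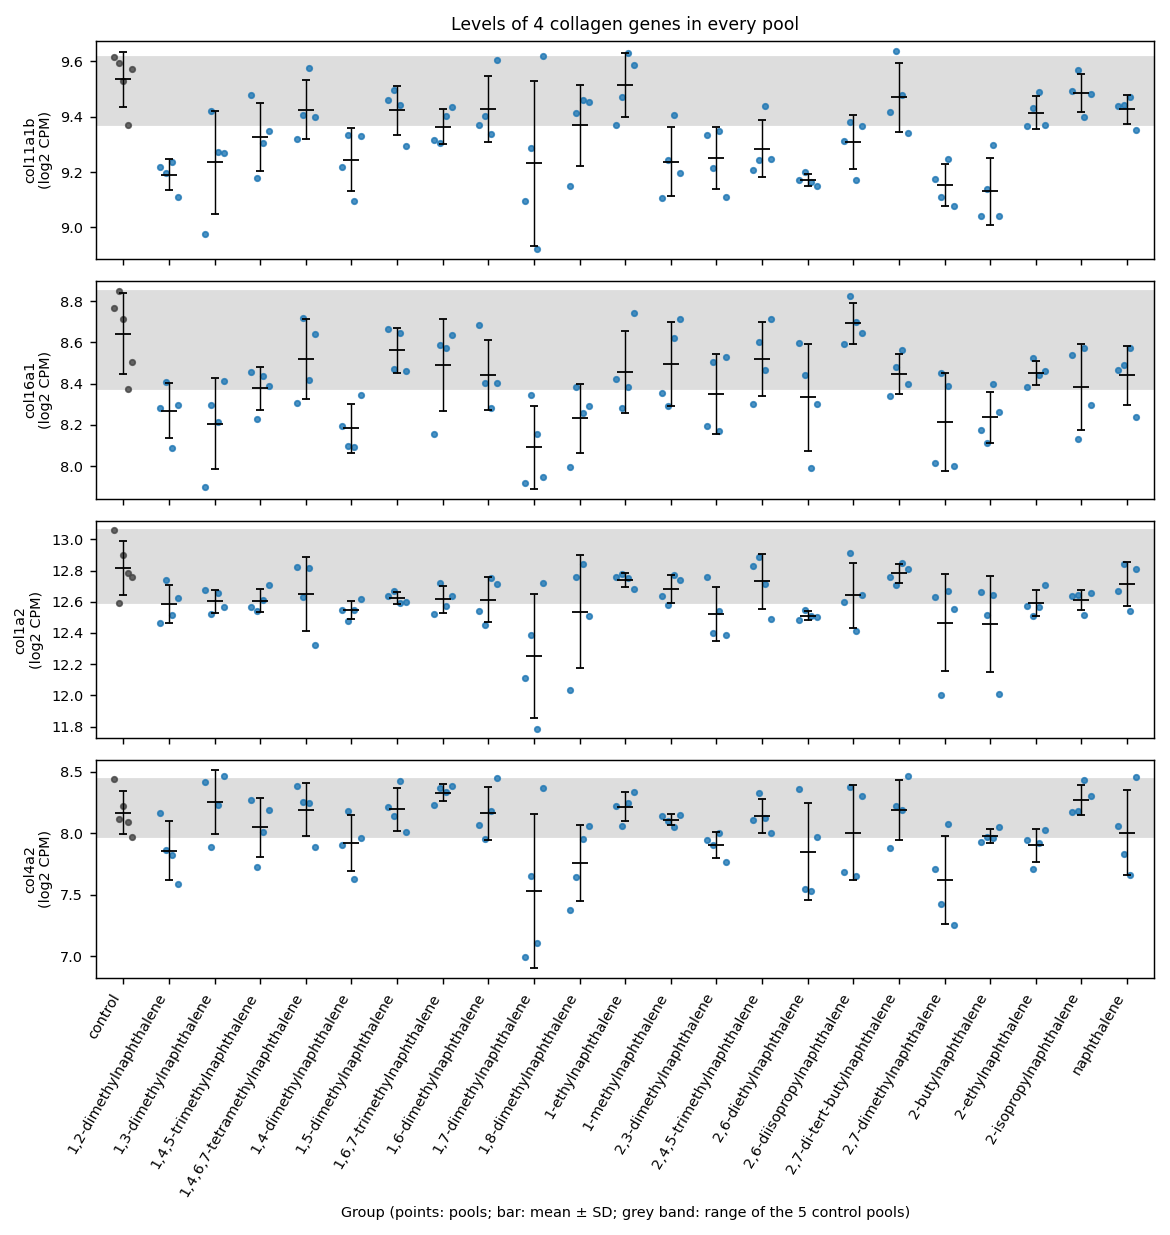
Log2 CPM of col11a1b, col16a1, col1a2 and col4a2 in every pool, with the mean and SD of each group and the range of the 5 control pools as a grey band. For col11a1b 51 of the 88 exposed pools lie below all control pools, and for col1a2 and col4a2 the lowest group is 1,7-dimethylnaphthalene.

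1,7-dimethylnaphthalene held the most lower calls, 6 of 49 members (12.2%), against 3.59% of all genes in this chemical, and all 6 were collagens. col1a2, the alpha 2 chain of type I collagen, stood at 13.06, 12.59, 12.90, 12.78 and 12.76 in the control pools (day 1 A and C, day 2 A, B and C) and at 12.11, 12.39, 11.79 and 12.72 in pools B, C, D and E of the chemical (log2FC -0.56, SE 0.13, limma adjusted p = 0.0024). col16a1 stood at 7.92, 8.35, 8.15 and 7.94 in these pools, all below the controls (log2FC -0.55, SE 0.12, limma adjusted p = 0.0020). col11a1b stood at 9.10, 9.29, 8.92 and 9.62, and pool E was level with the highest control pool (log2FC -0.30, SE 0.09, limma adjusted p = 0.025). Of the 3 genes, only col16a1 separated the groups in full.

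The basement membrane chain col4a2 had control values of 8.44, 8.11, 8.22, 8.09 and 7.97 and read 6.99, 7.65, 7.10 and 8.37 in 1,7-dimethylnaphthalene (log2FC -0.64, SE 0.18, limma adjusted p = 0.018). col6a2, a chain of the microfibrils of type VI collagen that surround muscle fibres, read 5.44, 5.21, 5.21, 4.54 and 4.78 in controls and 3.46, 4.49, 3.75 and 4.78 after exposure (log2FC -0.92, SE 0.29, limma adjusted p = 0.038). It came nearest to the fold criterion of all members with an adjusted p of at most 0.05. col9a3, a chain of the type IX collagen of cartilage and notochord, read 6.72, 6.54, 6.84, 6.83 and 6.27 in controls and 5.85, 6.00, 5.69 and 6.41 after exposure (log2FC -0.65, SE 0.20, limma adjusted p = 0.036). In each of these 3 genes pools B, C and D lay below every control pool and pool E lay within the control range, and pools B and D were the lowest. The decrease was therefore uneven between the 4 pools. Their SD was 0.63 in col4a2, 0.62 in col6a2 and 0.31 in col9a3. The SD over all groups, on which the SE and p value rest, was 0.26, 0.43 and 0.30. With the chemical and the controls fitted alone, none of its lower calls passed. Without pool E col6a2 had a log2FC of -1.14 (limma adjusted p = 0.012) and passed the DEG rule, as it also did without pool C of the chemical (log2FC -1.04) or without control pool B of day 2 (log2FC -1.04).

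The other members did not follow as a group in 1,7-dimethylnaphthalene. The median log2FC was -0.18 for the 26 collagens, of which 20 were below 0, and -0.04 for all 49 members. Compared with the control pools of its own day alone, col1a2 kept an adjusted p of at most 0.05 (log2FC -0.56) and the other 5 collagens lost it. Their log2FC against these 3 pools remained below 0, at -0.66 in col9a3, -0.56 in col4a2, -0.44 in col16a1, -0.72 in col6a2 and -0.26 in col11a1b (limma adjusted p = 0.066 to 0.28).

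**Figure D3:**
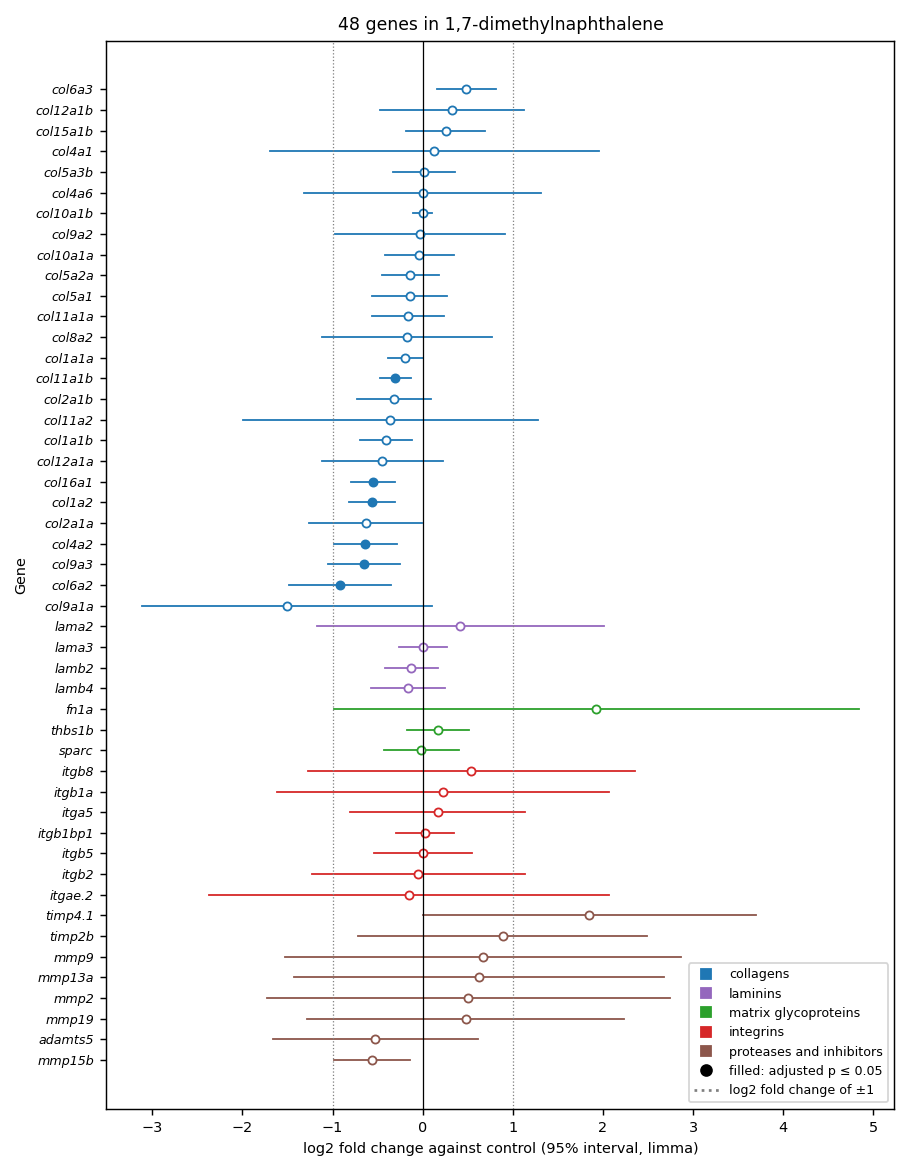
Log2FC of 48 of the 49 genes in 1,7-dimethylnaphthalene (4 pools) against the 5 control pools, with 95% intervals, grouped by family. The 6 collagens with an adjusted p of at most 0.05 lie between -0.30 and -0.92, and the widest interval is that of fn1a.

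Other features of the same pools were looked at beside these collagens, and they did not all follow the collagens from pool to pool. The summed level of 5 skeletal muscle genes was 14970, 17600, 15530 and 23650 CPM in pools B, C, D and E of 1,7-dimethylnaphthalene, and 21250 to 29830 CPM in the control pools. Muscle genes were thus lowest in the 3 pools where col4a2, col6a2 and col9a3 were lowest. Within the list myl1, a fast muscle myosin light chain, was lower by the test (log2FC -0.77, limma adjusted p = 0.00016). The 18 myeloid genes summed to 566 to 716 CPM, against 473 to 678 CPM in controls, with a median log2FC of 0.33, and within the list mpeg1.1, a macrophage gene, was higher (log2FC 1.07, limma adjusted p = 0.042) and cebpa lower (-0.69, adjusted p = 0.016). The 8 epidermis genes summed to 92860, 79730, 59020 and 70440 CPM in pools B, C, D and E. Pools B and C were above every control pool and pool D was below every control pool. In this list icn was higher (log2FC 0.44, limma adjusted p = 0.032). For cartilage, 7 genes summed to 131, 159, 109 and 195 CPM in pools B, C, D and E, against 116 to 235 CPM in controls (median log2FC -0.19, 0 calls). For notochord, 7 genes summed to 924.0, 918.5, 945.0 and 841.4 CPM in these pools, against 843 to 970 CPM in controls (median log2FC 0, 0 calls). The 7 endothelium genes had a median log2FC of -0.14. The 1 called among them, the tight junction gene cldn5a, was higher (log2FC 0.85, limma adjusted p = 0.00063). The 5 erythrocyte genes had a median log2FC of -0.70 with 0 calls. Their sum, 121 to 315 CPM and lowest in pool E, overlapped the 217 to 416 CPM of the controls. Total reads were 11.1 to 14.0 M, against 8.14 to 12.7 M in controls. plod1a, which encodes a lysyl hydroxylase that modifies collagen chains, was at 2.62 to 3.15 log2 CPM in the 4 pools and at 5.76 to 6.39 in the controls (log2FC -3.19). The part of these cell type genes, depth or plod1a in the collagen values was not tested.

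col1a1b, the other gene for the alpha 1 chain of type I collagen, differed among the groups (F test, limma adjusted p = 0.012) while not differing from control in any chemical at an adjusted p of at most 0.05. Its group means ran from 10.9 in 1,7-dimethylnaphthalene to 11.6 in 1,6,7-trimethyl-substituted naphthalene. The 4 pools stood at 10.75, 11.03, 10.51 and 11.26 in the first and at 11.43, 11.66, 11.46 and 11.98 in the second, while the controls stood at 11.36, 11.12, 11.42, 11.28 and 11.27. The controls lay below every pool of the second group and overlapped the first through its pool E.

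A few collagens had large but unsupported differences. The largest log2FC below 0 was that of col11a2, another type XI chain, in 2,3-dimethylnaphthalene (-2.01, SE 0.82, limma adjusted p = 0.27). Its reads there were 1, 75, 184 and 29, and 149, 106, 185, 72 and 110 in controls, so the groups overlapped and a single pool with 1 read set the mean. The largest above 0 was that of col4a6, a type IV chain, in 1,6-dimethylnaphthalene, with 6, 24, 0 and 6 reads against 0 in all 5 control pools (limma adjusted p = 0.29). Both genes for type X collagen, a product of maturing cartilage and bone cells, were almost without reads. col10a1a had 16 reads and col10a1b 1 read over the 93 pools together.

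Among the 5 laminins, the trimers of the basement membrane, lamb2 alone passed the F test (limma adjusted p = 0.019). Its control pools read 7.64, 7.92, 7.49, 7.47 and 7.54 log2 CPM. The lowest group, 2,6-diisopropylnaphthalene, read 7.45, 7.49, 6.85 and 7.04 and the highest, 1,4,6,7-tetramethyl-substituted naphthalene, read 7.73, 8.00, 7.88 and 7.90, with no overlap between these 2 groups and both overlapping the controls. lama3 passed against the controls in 1,3-dimethylnaphthalene (log2FC 0.47, SE 0.13, limma adjusted p = 0.046, against 0.913% of all genes higher in this chemical). It had 5 reads in pool D of that chemical and 0 reads in the other 92 pools. The fitted value of so few reads depends on the prior count, and they are too few to speak of a difference between groups. The largest laminin value above 0 was that of lama2, the laminin chain of muscle basement membranes, in 2,7-dimethylnaphthalene, with 108, 103, 77 and 72 reads against 39, 45, 62, 16 and 69 in controls. All 4 pools were above every control pool in reads, but the log2FC of 0.94 did not pass (SE 0.80, limma adjusted p = 0.69).

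Of the matrix glycoproteins, sparc, a collagen-binding protein secreted with the fibrils, was measured at a high level. Its SD within groups was 0.31, near the 0.30 of the median collagen. Its control pools stood at 12.40, 12.35, 11.84, 12.39 and 12.39 log2 CPM, and 4 of the 5 were nearly equal. Its group mean was below control in each of the 22 chemicals, with an unadjusted p under 0.05 in 6, but 0 chemicals passed after adjustment, and neither did the mean over all chemicals (difference -0.32, SE 0.14, limma adjusted p = 0.31). In 1,7-dimethylnaphthalene its pools read 12.76, 11.62, 12.86 and 11.80. Pools B and D, the lowest of the chemical in col1a2, col4a2, col6a2, col9a3 and col11a1b, were thus the high ones in sparc. Other collagens were high in pool D, which had the most reads of the 93 pools in col11a1a (3463) and col12a1b (271). It had 12542 reads of col2a1a, where the highest pool had 19491.

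fn1a, a fibronectin gene, was read in an on or off manner across pools. It had at most 5 reads in 49 pools and at least 20 reads in 34. These 34 were 1 of the 5 control pools and 33 of the 88 exposed pools (37.5%). In naphthalene its 4 pools had 126, 97, 85 and 51 reads, and the controls had 0, 1, 79, 1 and 1. The groups overlapped through control pool A of day 2, and the log2FC of 3.90, the largest of all members, did not pass (SE 1.46, limma adjusted p = 0.37). In 1,6-dimethylnaphthalene it had 0, 1, 2 and 1 reads, the lowest group (log2FC -0.91, limma adjusted p = 0.95).

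The integrin genes gave 0 calls against the controls by limma at an adjusted p of at most 0.05, with 2 lower and 2 higher values of 154 at an unadjusted p under 0.05. The largest difference was that of itgb8, the beta 8 subunit, known in mammals for activating latent TGF-beta, in 1,4,5-trimethyl-substituted naphthalene (log2FC -2.90, SE 0.91, limma adjusted p = 0.080). Its 4 pools had 1, 79, 0 and 0 reads, and the control pools 32, 76, 67, 27 and 11. In this group 3 pools were thus nearly without reads and 1, at 2.78 log2 CPM, lay within the control range of 0.14 to 3.13. The call depended on the prior count. With a prior count of 0.5 in place of 2 the log2FC was -4.08 and with voom -4.00, and both passed the DEG rule. It passed as well without pool C of the chemical (log2FC -4.14) and without control pool C of day 2 (log2FC -3.35). itgb1a, the beta 1 subunit that pairs with most matrix-binding alpha subunits, was highest in 2,3-dimethylnaphthalene, with 29, 0, 43 and 40 reads against 0, 81, 2, 0 and 1 in controls (log2FC 1.78, limma adjusted p = 0.42). It had 0 reads in all 4 pools of 6 chemicals, and the F test missed the threshold (limma adjusted p = 0.058). Both higher values at the unadjusted p were those of itgb5, which had 24 reads over the 93 pools. Of these reads 13 were in pool D of 1,6-dimethylnaphthalene and 10 in pool D of 2,6-diethylnaphthalene, too few to speak of a difference.

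The proteases and their inhibitors also gave 0 calls by limma. At an unadjusted p under 0.05, 8 of 176 values were lower (4.55%) and 6 higher (3.41%), against 6.56% and 4.82% over all genes. mmp9, a gelatinase made by macrophages and neutrophils, had its largest difference in 2-butylnaphthalene, with 23, 27, 67 and 61 reads against 5, 0, 0, 11 and 14 in controls. All 4 pools were above every control pool in reads, but the log2FC of 2.92 did not pass (SE 1.1, limma adjusted p = 0.21). adamts5, an aggrecanase, had a mean below control in all 22 chemicals and an unadjusted p under 0.05 in 5, and its mean over the chemicals did not pass (difference -0.74, limma adjusted p = 0.41). It was lowest in 2,6-diethylnaphthalene, with 23, 12, 39 and 31 reads against 74, 109, 60, 77 and 98. The largest negative value of the family was that of timp2b in 1-ethylnaphthalene (log2FC -1.65, limma adjusted p = 0.71), where reads of 1, 6, 29 and 54 overlapped control reads of 37, 65, 27, 20 and 44.

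A single pool, pool C of 1,6-dimethylnaphthalene, stood far above all others in 3 of these genes at once. It had 696 reads of mmp9, where the next highest of the 93 pools had 79. It had 161 reads of mmp13a, a collagenase, with 71 in the next, and 1109 reads of timp2b, an inhibitor of metalloproteinases, with 163 in the next. The other 3 pools of the chemical had 5, 79 and 2 reads of mmp9, 0, 12 and 3 of mmp13a and 29, 153 and 15 of timp2b. The summed level of the 18 myeloid genes was 619 CPM in pool C and 511 to 679 CPM in the group, against 473 to 678 CPM in controls.

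**Figure D4:**
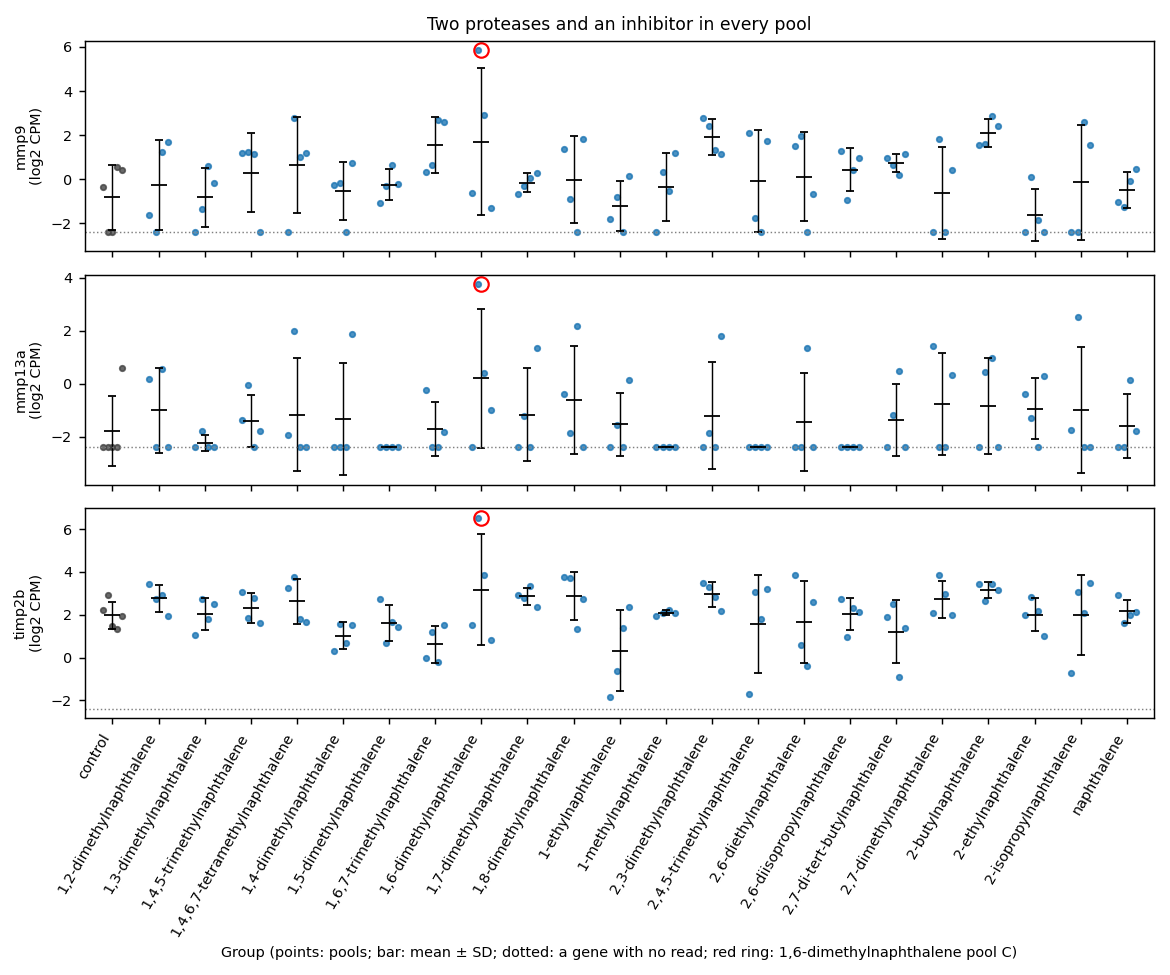
Log2 CPM of mmp9, mmp13a and timp2b in every pool, with the mean and SD of each group and a dotted line at the value of a gene with no read. The red ring marks pool C of 1,6-dimethylnaphthalene, with 696, 161 and 1109 reads the highest of the 93 pools in each of the 3 genes.

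The structures were compared next, in 22 pairs of chemicals exposed on the same day at the same dose that differ by a named change in their alkyl groups. By the DEG rule 0 of the 1078 member differences were called by limma, against 0.0696% of all differences. At an unadjusted p under 0.05 there were 97 (9.00%), against 7.60% of all differences, and voom also gave 0 calls. At an adjusted p of at most 0.05 without the fold criterion, 3 member differences passed (0.278%), against 0.324% of all. Each of the 3 had 1,7-dimethylnaphthalene on the lower side.

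Against unsubstituted naphthalene, 1,7-dimethylnaphthalene had lower col1a1b. The naphthalene pools read 11.67, 11.64, 11.32 and 11.47 log2 CPM and those of 1,7-dimethylnaphthalene 10.75, 11.03, 10.51 and 11.26, so they did not overlap (difference -0.64, 95% interval -0.94 to -0.33, limma adjusted p = 0.0079 over all genes and 0.0018 over the 22 pairs). col1a2 read 12.67, 12.84, 12.54 and 12.81 in naphthalene, and 3 of the 4 pools of 1,7-dimethylnaphthalene lay below (difference -0.46, 95% interval -0.73 to -0.19, limma adjusted p = 0.040 over all genes and 0.021 over the pairs). Moving 1 methyl group, from position 6 to 7, went with lower col4a2: the pools of 1,6-dimethylnaphthalene read 8.06, 7.95, 8.18 and 8.45, and 1,7-dimethylnaphthalene was lower by a difference of -0.63 (95% interval -1.0 to -0.26, limma adjusted p = 0.044 over all genes and 0.025 over the pairs). In col4a2, pool E of 1,7-dimethylnaphthalene lay within the range of the 1,6-dimethylnaphthalene pools, and pools B, C and D lay below it. Without pool B of 1,7-dimethylnaphthalene 0 of the 3 differences passed, and without its pool E 8 member differences did.

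For most other pairs the interval bounds the difference rather than finding one. 1,5- and 1,6-dimethylnaphthalene differed by 0.01 in col1a2 (95% interval -0.26 to 0.28), by -0.01 in col11a1b (-0.19 to 0.18) and by 0.03 in col4a2 (-0.34 to 0.41). 2,7- and 2,3-dimethylnaphthalene differed by -0.06 in col1a2 (95% interval -0.32 to 0.21) and by -0.10 in col11a1b (-0.29 to 0.08). Over all 22 pairs the difference in col11a1b lay between -0.30 and 0.18 on the log2 scale, and the widest bounds of its intervals were -0.48 and 0.36. The lowest difference was that of 2-butylnaphthalene minus naphthalene (group means 9.13 and 9.43), and its whole interval lay on the negative side. Although col11a1b was lower than control in 5 chemicals, none of these 22 pairs passed in it at a limma adjusted p of at most 0.05 over all genes. A pair with such an interval is not shown to be alike in col11a1b. Other pairs of chemicals were not tested.

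Whether partners of 1 structure varied together from pool to pool was tested on deviations from the group means, over the 93 pools, for 16 measured pairs of genes. For 3 pairs the permutation p (two-sided, 100000 permutations within groups, Benjamini-Hochberg over the 16) was at most 0.05. col1a1b and col1a2, chains of the same type I trimer, had a Pearson r of 0.76 and a Spearman rho of 0.67 (permutation p = 1e-05, the smallest that 100000 permutations give, adjusted 8e-05 for both). Without the 2 pools farthest from the median of col1a1b the r was 0.69, and it was 0.76 in day 1 and 0.78 in day 2. col2a1a, the chain of type II collagen in cartilage and notochord sheath, and col11a1a, its type XI partner, had an r of 0.73 and a rho of 0.66 (adjusted permutation p = 8e-05). There the r was 0.70 without 2 pools, 0.73 in day 1 and 0.72 in day 2.

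The third pair went in opposite directions. sparc and col1a2 had an r of -0.45 and a rho of -0.48 (permutation p = 0.00092, adjusted 0.0049). The r was -0.34 without the 2 pools farthest from the median of sparc (adjusted permutation p = 0.031), -0.47 in day 1 (adjusted 0.016) and -0.44 in day 2 (adjusted 0.17). By contrast, col1a1a was little related to col1a2 (r 0.18, adjusted permutation p = 0.58) or to col1a1b (r 0.09). mmp9 and its inhibitor timp2b had an r of 0.33 (adjusted permutation p = 0.13), which was 0.66 in day 2 (adjusted permutation p = 0.0065), 0.17 in day 1 and 0.18 without the 2 pools farthest from the median of mmp9. Among all pairs of the 2568 genes with a mean of at least 10 reads, the 5th and 95th percentiles of r were -0.23 and 0.24. Among the 40 members with such a mean they were -0.21 and 0.31. The 3 pairs lay outside both ranges, as did mmp9 and timp2b, which did not pass the test. Both genes of a pair come from the same library of a pool, and the part of library depth in the correlations was not tested.

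**Figure D5:**
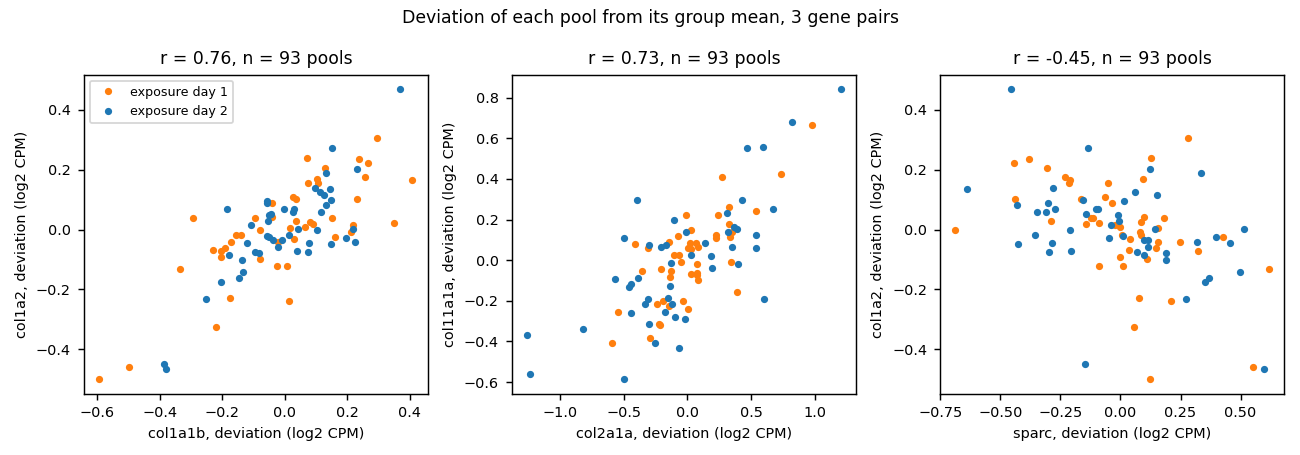
Deviation of each of the 93 pools from its group mean (log2 CPM) for col1a1b and col1a2, for col2a1a and col11a1a, and for sparc and col1a2. The points rise together in the first and second plots (r 0.76 and 0.73) and run in opposite directions in the third (r -0.45).

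Genes that make, modify or read the matrix were looked at from lists of such genes. The lists were chosen with earlier results of these data known, so the shares below describe them and are no independent test. All comparisons share the 5 control pools, and leaving out a control pool was not tried for the genes of the lists. Of 19 other matrix glycoproteins and proteoglycans, 35 of 418 comparisons (8.37%) were lower at a limma adjusted p of at most 0.05, against 0.719% of all, and 1 was higher. The 35 came from 7 genes. ccn1, a secreted integrin ligand, was lower in 10 chemicals (log2FC -0.64 to -1.15) and was a DEG in 1,7-dimethylnaphthalene and 2,4,5-trimethyl-substituted naphthalene. matn4, a matrilin, was also lower in 10 chemicals (-0.47 to -0.63), mfap2, a microfibril protein, in 6, hapln1a, a link protein of hyaluronan, in 4 and tgfbi in 3, of which it was a DEG in 2,7-dimethylnaphthalene (-1.09). nid2a, a nidogen of the basement membrane, and smoc1 were each lower in 1 chemical. The higher value was that of hspg2, which encodes perlecan, in 1,4-dimethylnaphthalene (log2FC 0.82). In 1,7-dimethylnaphthalene 5 of the 19 genes were lower, against 3.59% of all genes in this chemical.

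Of 10 genes that process collagen, crtap and plod1a changed. crtap, a subunit of the complex that hydroxylates prolines of collagen, was higher in 6 chemicals (log2FC 0.90 to 1.27) and a DEG in 4, which makes 2.73% of the 220 comparisons of the list, against 0.483% of all. plod1a was a DEG, lower, in 4 chemicals (-1.41 to -3.74), and the libraries of these 4 carry consecutive numbers, 11 to 14. The part of this order in the values was not tested. Of 22 genes of integrin adhesion signalling, 12 of 484 comparisons were lower (2.48%, against 0.719% of all) and 0 higher (against 0.483% of all). Of the 12, crkl, an adaptor of focal adhesions, gave 5 (-0.56 to -0.74). cav1 and rhoab gave 2 each, and cdc42, flna and ilk, the integrin-linked kinase, gave 1 each. Among 9 other extracellular proteases and inhibitors 0 of 198 comparisons were lower and 6 were higher (3.03%, against 0.483% of all), 5 of them of ctsla, a cathepsin L (log2FC 0.61 to 0.94), and 1 of plaua. Among 12 genes of TGF-beta signalling and matrix gene control, 0 of 264 passed in either direction.

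The controls of the 2 exposure days were compared with each other. The authors had removed the effect of the exposure day from the values beforehand. By limma 0 of the 49 members and 0% of all genes differed between the 3 pools of day 2 and the 2 of day 1 at an adjusted p of at most 0.05. An unadjusted p under 0.05 was found for 3 of the 49 members, against 229 of all 3068 genes. Of the 3, mmp2 (gelatinase A) had the largest difference, -2.12, with 22 and 36 reads on day 1 and 6, 5 and 8 on day 2 (limma adjusted p = 0.35). Most collagens were lower in the day 2 controls, with differences from -1.34 in col8a2 to 0.30 in col10a1a. A test of so few pools cannot show that the controls of the days were alike. The response to exposure (mean of the 11 chemicals of a day minus the controls of that day) did not pass a test of difference between the days for any member (0 of 49 by limma, smallest adjusted p = 0.38, 4 at an unadjusted p under 0.05). With the control pools of its own day alone for each chemical, 9 member comparisons were lower at an adjusted p of at most 0.05, and 5 of them were among the 14.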

How the data were processed

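The members, the lists and the pairs were chosen with earlier results of these data known. Per the labels and the methods, the authors obtained gene counts with the TempO-SeqR platform against GRCz11, summed the probes of a gene, corrected for exposure day with ComBat_seq, removed 1 control pool of day 1 as an outlier, and deposited log2 CPM from edgeR with upper-quartile scaling (versions not given in the sources used here). Their second file holds only their own comparisons (fold changes and p values) and was not used. Levels of different genes are not compared, since the number of probes per gene is not given in the sources used here.

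Whole reads were recovered from 100% of the deposited log2 values (tolerance 0.02 reads), and 1 read was worth 0.0696 to 0.148 CPM. These reads are counts after the correction for exposure day, so they can differ from the numbers sequenced. limma 3.58.1 (R 4.3.3) was fitted to the log2 values of 93 pools in 23 groups with no covariate (lmFit, eBayes), and p values were adjusted by Benjamini-Hochberg over 3068 genes. No count model was run on the recovered reads other than voom. The scripts were tested on simulated data. No 2 pools held identical values. Correlations used Python 3.11.15. Members were named where a test called them, where they held the largest log2 fold change of a family in either direction, or where they had fewer reads than pools, and adamts5, mmp2, mmp13a, sparc and the type II collagen chain were chosen after their values were seen. Alternatives were prior counts of 0.5 and 8, a minimum mean of 10 reads, centring, voom, a variance trend, own groups alone, same-day controls, a replicate block, leaving out each pool, and no fold criterion. The values of 1 member are not reported here, though it counts in the totals.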

Additional observations from a re-analysis of the deposited data

Results flagged for a closer look

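Of 41 groups of 4 or 5 pools of the named genes examined for a pool apart from the others, 2 held one. The usual rate of about 1 in 20 does not apply, since groups were picked through their values and some pools tie at 0 reads. In 1,4,5-trimethyl-substituted naphthalene itgb8 was at 2.78 log2 CPM in pool C and at -1.79, -2.39 and -2.39 in the others, and the gap was 0.884 of the range. In 1,3-dimethylnaphthalene lama3 was at -0.511 log2 CPM in pool D (5 reads) and at -2.39, the value of 0 reads, in the other 3.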

How the results depend on the processing

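The DEG calls of members against controls, 0 as reported, were 1 with a prior count of 0.5, 1 with voom, 2 with same-day controls (col2a1a in 1,8-dimethylnaphthalene, -1.44, and in 2,6-diethylnaphthalene, -1.42), 15 with no fold criterion and 0 to 1 when each pool was left out in turn. The 14 lower values at the adjusted p were 9 with pools centred on their median, 9 with same-day controls, 0 with each comparison fitted on its own groups alone and 5 to 19 with a pool left out. All 14 were kept with voom, the variance trend, either prior count and the read minimum. The 1 higher value (lama3) was 0 with a prior count of 8, the read minimum, voom, the trend, own groups alone, same-day controls or the replicate block, and 0 to 2 with a pool left out. The F test gave 5 to 8 members with a pool left out. The mean of all chemicals gave 0 members when centred, 2 with voom and 0 to 2 with a pool left out. In the structure pairs, DEG calls were 1 with own groups alone (fn1a, 1,6-dimethylnaphthalene minus naphthalene, -4.81), 3 with no fold criterion and 0 with any pool left out. At the adjusted p, own groups alone gave only that fn1a difference and lost each of the 3 reported ones. With a pool left out the count at the adjusted p was 0 to 8. Under these alternatives 0 of the named differences changed sign, and centring moved the all-gene median by at most 0.0387. The replicate block by the letter of the title gave 13 lower values, all among the 14, and 5 members in the F test. For 1 pool the library name carries another letter than the title. With the letter of the library name, chosen after seeing the data, the replicate block gave 13 lower values, again all among the 14, 0 higher values and 6 members in the F test. Letters did not pair pools (mean r 0.0028 within a title letter, -0.00071 between, and 20 of 93 pools closest to their own letter, 22 with library names). The cause of these shifts was not tested. Genes under 10 reads and proteases are limited by depth and by their spread.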
